A study of Mus musculus with 56 samples.

Results

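Cortical and medullary thymic epithelial cells (cTECs and mTECs) of non-pregnant females were compared by RNA sequencing, gene by gene. The comparison held the 6 samples labelled NPC, 3 of cTECs and 3 of mTECs, of the 56 samples of the series. The genes tested were those with a mean of at least 0.5 FPKM (fragments scaled by transcript length and by the fragments of the library) in either cell type, 18476 in all. The series followed both cell types of the mouse thymus through late gestation and the weeks after birth, and the NPC mice were its age-matched, non-pregnant reference. They were females of the CD45.1 strain B.6SJL-Ptprca Pep3b/BoyJ, with no transgene or treatment. Each sample came from 1 mouse. Thymi were digested with papain, collagenase IV and DNase, epithelial cells were enriched on EpCAM beads, and EpCAM+ CD45- cells were sorted into Trizol as UEA1- cTECs or UEA1+ mTECs, UEA1 being a lectin that binds fucosylated surface sugars. The sorted fractions may therefore each hold several kinds of epithelial cell, and cells are assigned to the cortex or medulla by this one lectin. Poly(A) RNA was sequenced from stranded libraries.

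The thymic cortex is the place where T cell precursors are recruited, commit to the T lineage and are positively selected on peptides that cTECs make with enzymes of their own, the thymoproteasome subunit PSMB11 and the protease PRSS16. The medulla receives the selected cells, and mTECs there display proteins of many other tissues under the control of AIRE and FEZF2 and attract thymocytes with CCL21. Both cell types depend on the transcription factor FOXN1.

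Total expected counts were 9720845, 12974714 and 6718253 in cTEC replicates 1, 4 and 5 and 27173169, 31668145 and 10882687 in mTEC replicates 1, 3 and 4, numbered as in their titles, and levels are given below in that order. Pearson correlations of log2 counts scaled by library size were 0.884 to 0.921 within cTECs and 0.782 to 0.852 within mTECs. Between the cell types they were 0.755 to 0.891, so the values within mTECs lay inside that range. One library of each cell type, cTEC 5 and mTEC 4, stood apart from the others in the same way. Both carry replicate tag 3 in the labels, a number apart from that of the titles. What a tag stands for is not given there. The immediate-early gene *Fosb* was at 2470 FPKM in cTEC 5 against 758 and 718.2 FPKM in the other cTEC libraries, and at 1251 FPKM in mTEC 4 against 454.5 and 366.1 FPKM. Those libraries were also lowest in *Foxn1*, at 67.8 FPKM in cTEC 5 and 49.4 FPKM in mTEC 4, against 185.6 and 220.5 FPKM and 113.2 and 97.5 FPKM. *Pth*, which encodes parathyroid hormone, ran from 63 to 964.9 FPKM over the 6 libraries without regard to cell type, as the plot of library-to-library differences shows. Summed FPKM of 6 parathyroid and thyroid markers was 117 and 93.1 in the libraries of tag 1 (cTEC 1, mTEC 1). It was 976.8 and 998.4 in those of tag 2 (cTEC 4, mTEC 3) and 478.3 and 682.4 in those of tag 3. The source of these differences was not tested. Counts of called genes are also given below without single libraries, while most calls of single genes are given on all 6 libraries only.

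**Figure D1:**
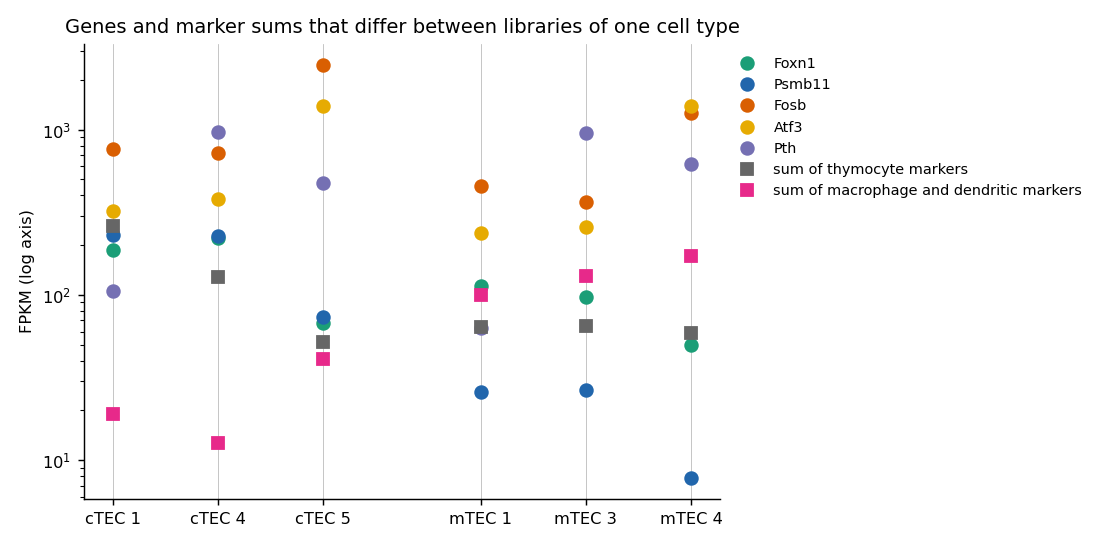
Levels (FPKM, log axis) in each of the 6 NPC libraries of 5 genes (circles) and of 2 summed marker lists (squares), with cTEC libraries on the left and mTEC libraries on the right. *Fosb* and *Atf3* are highest and *Foxn1* and *Psmb11* lowest in cTEC 5 and mTEC 4 within their cell types, and *Pth* is lowest in cTEC 1 and mTEC 1.

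The 6 marker genes given with the comparison separated the sorts. *Prss16* (chr13:22002173-22009742, minus strand, GRCm38), the thymus-specific serine protease that trims class II peptides, was at 1436, 2020 and 1194 FPKM in cTECs and at 140.1, 173.9 and 138.3 FPKM in mTECs. It was 10.3-fold higher in cTECs, with a log2 fold change of 3.37 ± 0.26 (SE, n = 3 per cell type) and an adjusted p of 3.6e-04 by limma-voom. Fold changes here and below are those of the fit to counts. They can differ from the ratio of the FPKM values printed beside them. *Ly75* (chr2:60292103-60383303, minus strand), the endocytic receptor DEC-205, was at 81.6, 99.6 and 93.6 FPKM in cTECs and at 13.7, 6.17 and 19.7 FPKM in mTECs, 8.07-fold higher in cTECs (adjusted p = 0.00212). *Psmb11* (chr14:54621433-54629556, plus strand) was at 230.7, 227 and 73.8 FPKM in cTECs and at 25.7, 26.6 and 7.77 FPKM in mTECs. Its log2 fold change of 3.03 ± 0.53 had an adjusted p of 0.0143, so it did not meet the threshold of 0.01 although the groups did not overlap. Without cTEC 5, the library with the low value, its adjusted p was 0.00126.

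Of the mTEC markers, *Fezf2* (chr14:12342094-12348189, minus strand), a transcription factor that drives tissue-restricted genes, was at 33.1, 28.3 and 24.2 FPKM in cTECs and at 157.9, 99.5 and 141.1 FPKM in mTECs, 4.68-fold higher in mTECs (adjusted p = 0.00404). *Ccl21a* (chr4:42772860-42773993, minus strand), the chemokine that draws CCR7+ thymocytes into the medulla, was at 3183, 2488 and 4603 FPKM in cTECs and at 13205, 15266 and 9069 FPKM in mTECs, 3.83-fold higher in mTECs (adjusted p = 0.00445), a difference that edgeR did not call. *Aire* (chr10:78030022-78043610, minus strand), the autoimmune regulator, was at 7.6, 1.15 and 16.5 FPKM in cTECs and at 95.2, 102.5 and 317 FPKM in mTECs. Its log2 fold change was the largest of the 6 markers at -5.60, but with an SE of 1.14 its adjusted p was 0.0292. No marker overlapped between the cell types, and none was absent from the opposite sort. In these bulk samples, fewer cells of a type and less RNA per cell cannot be told apart, so the mTEC markers in the cTEC libraries could not be assigned to cTECs or to other cells in the gate.

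**Figure D2:**
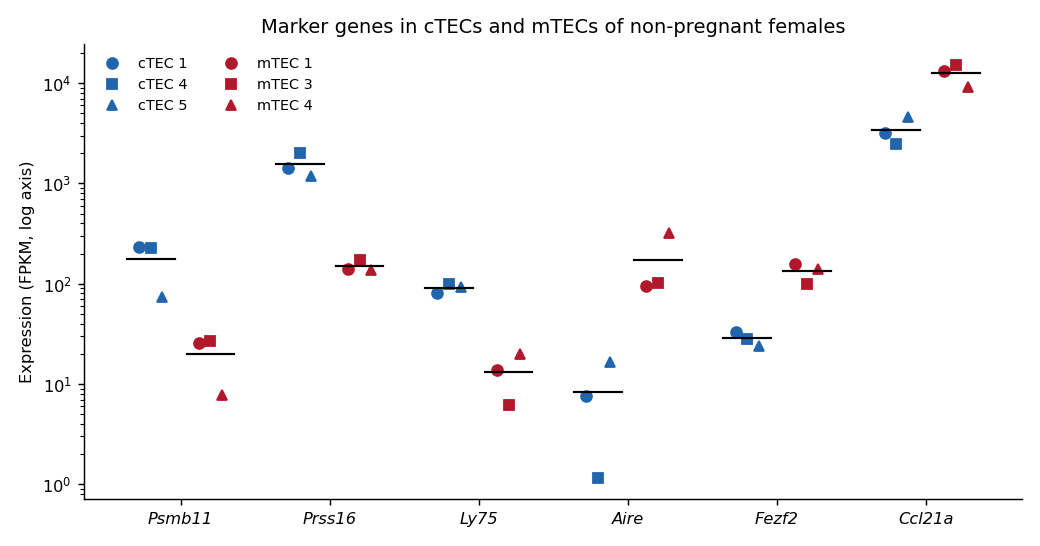
Levels (FPKM, log axis) of 3 cTEC markers (*Psmb11*, *Prss16*, *Ly75*) and 3 mTEC markers (*Aire*, *Fezf2*, *Ccl21a*), with 1 point per library, 1 symbol per replicate and a bar at the mean of 3. The groups do not overlap for any of the 6 genes, and *Aire* spans 1.15 to 16.5 FPKM within cTECs.

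*Ccl21a* has near-identical copies, and the reads of these copies cannot be apportioned with certainty. *Ccl21b* and *Gm10591* (chr4:42255767-42256432 and chr4:42612195-42612860, both on the plus strand) were given identical values in all 6 libraries, at 0, 0 and 71.9 FPKM in cTECs and 96, 192.5 and 341.2 FPKM in mTECs. *Gm21541* was at 0, 0 and 136.1 FPKM in cTECs and at 1339, 3335 and 212.6 FPKM in mTECs, and *Gm13304* at 196.8, 127.0 and 51.7 FPKM and at 1465, 0 and 1888 FPKM. *Gm21541* was highest in mTEC 3, where *Gm13304* was at 0. The mTEC values of the copies, like those of *Gm13305* and *Gm2564* in the same stretch of chromosome 4, are uncertain for that reason.

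With a 2-fold or larger change and an adjusted p no higher than 0.01 required, 128 of the 18476 genes differed between the cell types (0.693%), 56 of them higher in cTECs (0.303%) and 72 higher in mTECs (0.39%). The FPKM of the 3 cTECs and the 3 mTECs did not overlap for any of the 128, against 21% of all tested genes. The calls were made on these same libraries, so that lack of overlap is no separate evidence. Their absolute log2 fold changes ran from 1.24 to 5.12 (median 2.52). They were well-expressed genes, with a median of 97.6 FPKM in the higher cell type against 9.18 FPKM for all tested genes, and none was below 7.44 FPKM. The median SE of the log2 fold change was 0.32 for these and 0.66 for all genes, so a difference of 2-fold in a gene of ordinary level was not detectable with these 6 libraries. At an adjusted p of at most 0.05, 424 genes passed (2.29%), 177 higher in cTECs (0.958%) and 247 higher in mTECs (1.34%), and 3463 had an unadjusted p under 0.05.

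The number of genes called rested on single libraries. Without cTEC 4, limma-voom called 0 genes, with 1935 at an unadjusted p under 0.05, while edgeR called 70 and DESeq2 807 on the same 5 libraries, a pair of alternatives chosen after the data were seen. Of the 128 genes, 33 were among the 70 and 127 among the 807. Without cTEC 1, 26 genes were called, 25 of them among the 128, and without mTEC 3 there were 83, with 70 shared. Of single genes, *Jag2* lost its call whichever library was left out, and *Serpinf1* kept it only without cTEC 1. *Fezf2* lost it without any 1 cTEC library, and *Kitl* did so too and also without mTEC 3. *Prss16*, *Cxcl12*, *Ackr4* and *Cd83* lost theirs only without cTEC 4. On all 6 libraries edgeR called 259 genes, 119 of them among the 128, and DESeq2 973, including all 128. None of the 83 genes followed through the alternatives changed direction under any of these alternatives.

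**Figure D3:**
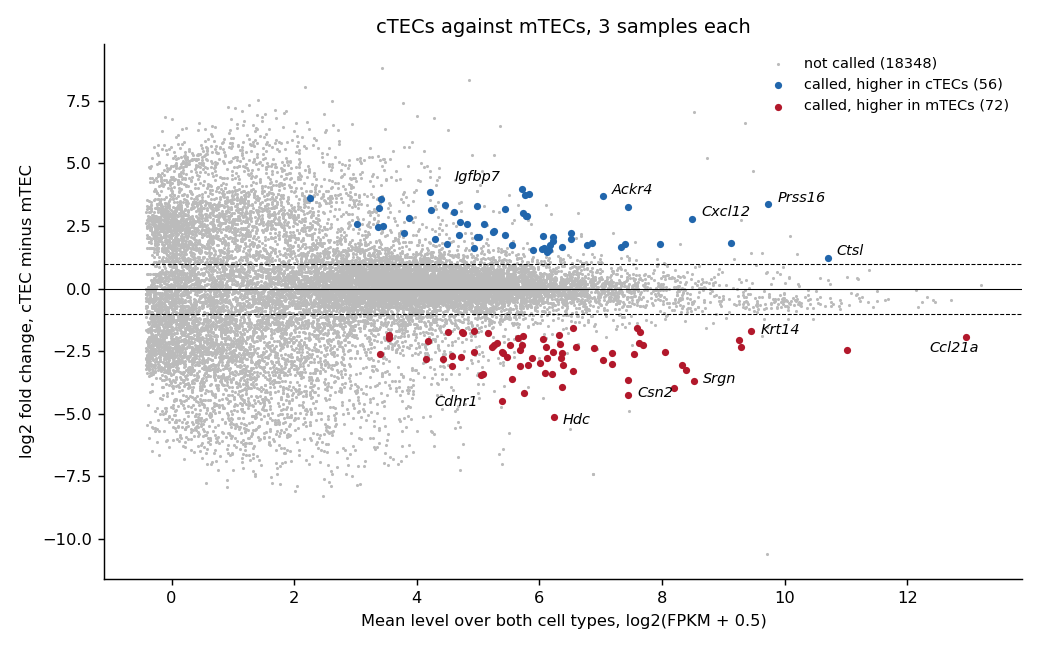
The log2 fold change of each tested gene (cTEC minus mTEC, vertical axis) against its mean level over both cell types, log2(FPKM + 0.5), with called genes in blue (56, higher in cTECs) and red (72, higher in mTECs), others in grey and dashed lines at a fold change of 2. Called genes lie at middle and high levels, and large fold changes at low levels are not called.

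Genes known for cTEC function were called in 1 direction. Of the 15 tested genes of the cTEC identity list, 7 were called higher in cTECs, against 0.303% of all tested genes, and none in mTECs. All 15 had a positive log2 fold change, with a median of 2.09 against 0.0043 over all tested genes. For the lists that follow, the shares of all tested genes called are likewise 0.303% towards cTECs and 0.39% towards mTECs. These lists were drawn from what is known of TECs, with earlier results of the same data at hand. *Ackr4*, the atypical receptor that clears CCL21, CCL19 and CCL25, was at 249.3, 266 and 213.4 FPKM in cTECs and at 15.4, 28.7 and 11.6 FPKM in mTECs, a 13-fold difference (adjusted p = 4.5e-04). *Cxcl12*, the chemokine that retains CXCR4+ precursors in the cortex, was at 571.4, 614.4 and 706.9 FPKM in cTECs and 91.6, 100.9 and 79.3 FPKM in mTECs, 6.91-fold apart (adjusted p = 3.6e-04). *Cd83*, which stabilises class II molecules on the cTEC surface, was at 102, 142 and 69 FPKM in cTECs and 6.88, 5.78 and 11.5 FPKM in mTECs, 13.9-fold apart (adjusted p = 0.00112). For all 3 the lowest cTEC library was several times the highest mTEC library.

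The aminopeptidase *Enpep*, which carries the cTEC surface antigen Ly51, was at 39.3, 31 and 52.7 FPKM in cTECs and at 4.69, 6.21 and 9.34 FPKM in mTECs (8.37-fold, adjusted p = 0.00383). *Ctsl*, the cysteine protease that makes class II peptides in the cortex, was at 2063, 2336 and 2657 FPKM against 871, 875.5 and 1172 FPKM, a smaller difference of 2.36-fold (adjusted p = 0.00776) that edgeR did not call. Other cTEC genes missed the threshold without overlapping. *Ccl25*, which recruits precursors through CCR9, was at 1995, 2513 and 881.9 FPKM in cTECs and 453.8, 373.2 and 312.4 FPKM in mTECs, with a log2 fold change of 2.09 ± 0.37 and an adjusted p of 0.0144. *Dll4*, the Notch ligand that commits precursors to the T lineage, was at 20.4, 25.8 and 19.8 FPKM against 7.32, 8.13 and 7.78 FPKM (log2 fold change 1.40, adjusted p = 0.0378). *Tbata*, a thymus-enriched gene, was at 1794, 2040 and 1305 FPKM against 789.8, 592.2 and 509.4 FPKM (log2 fold change 1.38, adjusted p = 0.0226). *Il7*, the survival cytokine of early thymocytes, did overlap, at 98, 122 and 87 FPKM in cTECs and 76.3, 104.5 and 87.3 FPKM in mTECs.

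Genes known for mTEC function leaned the other way. Of 19 tested genes, 6 were called higher in mTECs, against 0.39% of all tested genes, and none in cTECs. A negative log2 fold change was found for 18, and the median was -2.55. *Spib*, a transcription factor induced by RANK signals, was at 11.4, 11.2 and 20.4 FPKM in cTECs and at 88.4, 131.7 and 121.6 FPKM in mTECs, 7.79-fold higher in mTECs (adjusted p = 0.00113). *Krt14*, a basal keratin, was at 352.6, 376.4 and 357.6 FPKM against 1087, 1203 and 823.4 FPKM, 3.26-fold apart (adjusted p = 0.00465). Besides *Fezf2* and *Ccl21a*, the called genes included *Ctss*, the protease that degrades the invariant chain in professional antigen-presenting cells, at 8.98, 12.6 and 13.8 FPKM against 60.7, 77.2 and 88.6 FPKM, 6.55-fold apart (adjusted p = 0.00719). *Ccl19*, the second CCR7 ligand, did not overlap either, at 30.7, 13.5 and 49.2 FPKM in cTECs and 167.1, 121.6 and 140.9 FPKM in mTECs, but had an adjusted p of 0.0171.

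The proteases that prepare class II peptides split. *Prss16* and *Ctsl* were called higher in cTECs and *Ctss* and *Ctsh* in mTECs, of 9 tested. *Ctsh*, an aminopeptidase of the lysosome, was at 18.9, 18.6 and 26.9 FPKM in cTECs and 121, 105.9 and 155.1 FPKM in mTECs, 5.83-fold apart (adjusted p = 0.00524). *Ifi30*, the lysosomal thiol reductase, was at 45.1, 66 and 61.2 FPKM against 141.9, 157.3 and 163.3 FPKM (log2 fold change -1.47, adjusted p = 0.02). On the per-length scale *Ctsl* exceeded *Ctss* in every library, also in mTECs, where the lowest *Ctsl* value was 871 FPKM and the highest *Ctss* value 88.6 FPKM.

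Among catalytic subunits of the proteasome, *Psmb11* alone showed groups that did not overlap. *Psmb8*, *Psmb9* and *Psmb10*, the immunoproteasome subunits, and *Psmb5*, the constitutive subunit whose place PSMB8 or PSMB11 takes, had log2 fold changes of -0.44, 0.75, 0.39 and 0.29, none called (adjusted p from 0.21 to 0.676). *Psmb5* was at 97.3, 99.4 and 74.6 FPKM in cTECs and at 64.5, 96.3 and 54.2 FPKM in mTECs, so cTECs 1 and 4 held more *Psmb11* than *Psmb5* RNA per length and all mTECs less. The activator subunit *Psme1* was at 125.1, 219.4 and 110.6 FPKM in cTECs and at 363.4, 287.1 and 250.4 FPKM in mTECs, a log2 fold change of -1.33 (adjusted p = 0.0262). No gene of the 9 in the proteasome list was called, and their median log2 fold change was -0.09.

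The start regions of these subunits and of *Ccl21a* are shown because the cortical subunit is a known target of FOXN1, whose binding core is GACGC. Each sequence is the 250 bases before and 50 bases after the RefSeq start in GRCm38.p6, 5′ to 3′ on the gene's strand, with GACGC on either strand (GACGC or GCGTC) in capitals. The regions are *Psmb11* chr14:54625060-54625359 (plus strand), *Psmb8* chr17:34197945-34198244 (plus), *Psmb5* chr14:54617946-54618245 (minus) and *Ccl21a* chr4:42773942-42774241 (minus). The RefSeq start of *Psmb11* lies inside the longer gene model quoted above.
Psmb11: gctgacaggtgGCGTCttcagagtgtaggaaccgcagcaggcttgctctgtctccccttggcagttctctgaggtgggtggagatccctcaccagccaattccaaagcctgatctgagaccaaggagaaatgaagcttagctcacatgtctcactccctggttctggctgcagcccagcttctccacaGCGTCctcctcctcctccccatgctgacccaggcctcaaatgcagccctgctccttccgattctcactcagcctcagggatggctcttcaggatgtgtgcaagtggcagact
Psmb8: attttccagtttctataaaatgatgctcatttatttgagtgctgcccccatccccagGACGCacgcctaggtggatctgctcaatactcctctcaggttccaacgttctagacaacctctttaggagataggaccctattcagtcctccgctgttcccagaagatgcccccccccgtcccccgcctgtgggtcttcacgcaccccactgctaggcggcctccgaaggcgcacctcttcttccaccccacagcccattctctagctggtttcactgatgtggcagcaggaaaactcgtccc
Psmb5: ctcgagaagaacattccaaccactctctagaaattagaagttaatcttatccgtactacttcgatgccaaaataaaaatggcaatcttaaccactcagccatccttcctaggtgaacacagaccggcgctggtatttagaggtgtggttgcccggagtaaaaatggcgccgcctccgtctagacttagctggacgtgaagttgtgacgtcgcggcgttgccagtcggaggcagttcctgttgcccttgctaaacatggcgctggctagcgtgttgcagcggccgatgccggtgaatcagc
Ccl21a: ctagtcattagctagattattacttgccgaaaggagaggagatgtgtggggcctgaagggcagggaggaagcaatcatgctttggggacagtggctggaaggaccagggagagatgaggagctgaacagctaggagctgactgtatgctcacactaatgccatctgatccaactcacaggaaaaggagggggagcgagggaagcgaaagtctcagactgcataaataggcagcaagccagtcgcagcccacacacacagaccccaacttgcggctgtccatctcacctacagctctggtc
The core was present 2 times in the *Psmb11* region, 1 time in that of *Psmb8* and not in those of *Psmb5* and *Ccl21a*. A region was at hand for 12671 of the tested genes, and 42% of those held the core, with a median GC content of 60%. Among genes called higher in cTECs it was in 23 of 45 regions (51.1%, median GC 67%), and among genes called higher in mTECs in 6 of 53 (11.3%, median GC 55.3%). Over all 27025 genes with a region, tested or not, the core was in 27.4% (median GC 52.7%). The part of GC content in these shares was not tested. A match of 5 letters is not a binding site.

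Of the 15 called genes with the largest differences towards cTECs, *Cd83*, *Ackr4*, *Prss16* and *Enpep* belong to the identity list and were given above. *Igfbp7*, a secreted binding protein of insulin-like growth factors, led the called genes at 75.1, 116.9 and 98.7 FPKM in cTECs and 3.28, 8.1 and 11.2 FPKM in mTECs, 15.6-fold apart (adjusted p = 0.00212). *Prkcq*, protein kinase C theta, best known downstream of the T cell receptor, was at 38.5, 41 and 20.3 FPKM against 1.87, 3.7 and 2.63 FPKM, 14.7-fold apart (adjusted p = 0.00346). *Serpinf1*, the secreted anti-angiogenic factor PEDF, was at 49, 150 and 101.1 FPKM against 8.37, 8.21 and 5.94 FPKM, 13.3-fold apart (adjusted p = 0.00786). The lowest cTEC library was above every mTEC library for each of them, but none of the 128 called genes overlapped. *Mgll*, the lipase that breaks down the endocannabinoid 2-AG, was at 362.2, 450.9 and 129.8 FPKM against 53.8, 28.9 and 16.7 FPKM, 9.60-fold apart (adjusted p = 0.00299). *Abat*, which degrades the transmitter GABA, was at 34.5, 39.1 and 34.6 FPKM against 4.25, 13.5 and 3.45 FPKM, 10.3-fold apart (adjusted p = 6.6e-04). That fold, from counts, is larger than its mean FPKM of 36.1 and 7.07 give. Fits of log2 FPKM in place of counts called neither *Mgll* nor *Abat*.

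The other leading cTEC genes had less in common by role. *Ada*, the deaminase that clears adenosine and deoxyadenosine, was at 34.1, 34.8 and 27.7 FPKM in cTECs and 4.82, 2.26 and 6.36 FPKM in mTECs (8.92-fold, adjusted p = 0.00597). *Slc36a1*, a lysosomal amino acid transporter, was at 48.5, 70.6 and 42.4 FPKM against 13.1, 2.21 and 9.09 FPKM (9.84-fold, adjusted p = 0.00144). *Scn1a*, a voltage-gated sodium channel, was at 15.9, 15.4 and 20 FPKM against 3.48, 3.23 and 1.69 FPKM (9.20-fold, adjusted p = 0.00312). The vesicle protein gene *Syngr1*, the microtubule gene *Mtcl1* and the kinesin gene *Kif21b* completed the first 15, with fold changes of 9.03, 11.8 and 12.2 and cTEC levels of 53.2 to 105.8, 15.5 to 20.5 and 6.27 to 9.34 FPKM. *Kif21b* was not called by edgeR on the same 6 libraries. Mean FPKM was 17.3 against 3.19 for *Mtcl1* and 7.44 against 1.12 for *Kif21b*, smaller differences than the count folds. Fits of log2 FPKM in place of counts did not call *Ada*, *Slc36a1*, *Scn1a*, *Mtcl1* or *Kif21b*.

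In the other direction *Hdc*, which makes histamine from histidine, led the called genes at 9.38, 2.57 and 8.72 FPKM in cTECs and 129.1, 138.5 and 159.8 FPKM in mTECs, 34.9-fold apart (log2 fold change -5.12 ± 0.57, adjusted p = 0.00144). *Cdhr1*, a cadherin of photoreceptors, was at 5.05, 2.65 and 4.23 FPKM against 80.4, 78.4 and 78.4 FPKM, 22.4-fold apart (adjusted p = 4.9e-04). *Csn2*, the milk protein beta-casein, was at 17.4, 13.1 and 23.8 FPKM against 321.8, 226.2 and 438.4 FPKM, 18.9-fold apart (adjusted p = 0.00274). The 3 mTEC libraries differed little in *Hdc* and *Cdhr1* and nearly 2-fold in *Csn2*. *Fscn1*, the actin-bundling protein of mature dendritic cells and a known marker of mTECs, was at 5.2, 5.6 and 12.5 FPKM against 89.8, 54.5 and 150.3 FPKM, 18.1-fold apart (adjusted p = 0.00829).

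Several mTEC-high genes are best known from haematopoietic cells. *Il4i1*, an L-amino-acid oxidase, was at 12.8, 11.7 and 9.62 FPKM in cTECs and 144.3, 138.1 and 177.8 FPKM in mTECs (15.1-fold, adjusted p = 6.1e-04). *Srgn*, the proteoglycan of secretory granules, was at 67.2, 39.4 and 86 FPKM against 613.4, 551.4 and 839.9 FPKM (12.8-fold, adjusted p = 6.1e-04). *Alox15*, a lipoxygenase, was at 16.1, 17.3 and 17.9 FPKM against 177.2, 104.6 and 107.5 FPKM (10.7-fold, adjusted p = 6.6e-04). *Cyba*, a subunit of the phagocyte oxidase, was at 18.2, 15.4 and 22 FPKM against 190.9, 148.4 and 162.5 FPKM (9.76-fold, adjusted p = 0.00465). *Lyz2*, a lysozyme of macrophages, was at 12.3, 7.44 and 24.6 FPKM against 67.2, 91.5 and 131.9 FPKM (8.23-fold, adjusted p = 0.00909). The levels of the haematopoietic marker lists that stand beside these genes are given further on. *Rap1gap*, a regulator of the GTPase RAP1, and *Wfdc18*, a small secreted protease inhibitor, were 11-fold and 9.47-fold higher in mTECs, at 42.3 to 75.8 and 512.1 to 731.6 FPKM there.

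Genes of MHC presentation gave no call. None of 10 class II genes and none of 10 class I genes was called, with median log2 fold changes of -0.43 and -0.17. Of the class II genes, 5 did not overlap and were higher in mTECs, against 12.9% of tested genes. In the other direction there was 1, against 8.15%. Of the class I genes, 2 did not overlap towards mTECs and 1 towards cTECs. *Cd74*, the invariant chain and among the 10 highest RNAs in both cell types, was at 5266, 5849 and 6421 FPKM in cTECs and 7841, 8145 and 6915 FPKM in mTECs (log2 fold change -0.44 ± 0.19, adjusted p = 0.235). *H2-Aa*, the class II alpha chain, was at 2774, 3349 and 2574 FPKM against 4153, 3974 and 3000 FPKM, and *B2m*, the class I light chain, at 4014, 4079 and 3955 FPKM against 5673, 5733 and 5523 FPKM. *B2m* did not overlap, yet its log2 fold change of -0.54 is below the fold of 2 that a call needs. Of the accessory subunits, *H2-Oa* was at 93.7, 93.5 and 83.8 FPKM in cTECs and 183, 217.9 and 131.5 FPKM in mTECs. None of 17 autophagy genes was called (median 0.25), *Lamp2*, a lysosomal membrane protein, coming closest at 319.1, 391.1 and 280.5 FPKM against 129.6, 160.6 and 182.4 FPKM (log2 fold change 0.96, adjusted p = 0.0534).

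Costimulatory ligands gave no call among 11 tested genes, with a median log2 fold change of -0.78. *Cd70*, with means of 0.457 FPKM in cTECs and 7.06 FPKM in mTECs, passed the filter through mTECs alone and had to be higher there. *Cd80*, a ligand of CD28, was at 2.93, 0.43 and 2.02 FPKM in cTECs and 21.4, 10.5 and 29.6 FPKM in mTECs, and *Pdcd1lg2*, the second ligand of PD-1, at 4.35, 3.8 and 4.38 FPKM against 16.7, 18.5 and 21.8 FPKM. *Icosl* was at 2.6, 3.74 and 10.2 FPKM against 24.9, 21.5 and 89.7 FPKM (log2 fold change -3.40 ± 0.90, adjusted p = 0.0731). These 3 did not overlap between the cell types. *Cd274*, the first ligand of PD-1, did, at 105.5, 163.2 and 210.6 FPKM in cTECs and 44.9, 52.4 and 168.4 FPKM in mTECs. Over the list, 4 of the 11 did not overlap and were higher in mTECs, against 12.9% of tested genes. Towards cTECs there was 1, against 8.15%.

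Of 17 tested chemokines, *Cxcl12* was called higher in cTECs and *Ccl21a* and *Cxcl9* in mTECs, and the median log2 fold change was -1.94. *Cxcl9*, a ligand of CXCR3, was at 12.8, 3.19 and 8.68 FPKM in cTECs and 75.6, 50.5 and 129 FPKM in mTECs, 12.4-fold apart (adjusted p = 0.00695), whereas *Cxcl10*, a second CXCR3 ligand, was at 358.8, 355.6 and 1249 FPKM against 305.2, 338.3 and 1503 FPKM and followed the libraries rather than the cell types. In all, 10 of the 17 did not overlap and were higher in mTECs, against 12.9% of tested genes, and 3 were higher in cTECs, against 8.15%. Among the 10, *Ccl17* and *Ccl28* had cTEC means of 0.343 and 0.177 FPKM and passed the filter through mTECs alone. They had to be higher there. *Xcl1*, at 0 FPKM in cTECs, also passed through mTECs alone, so the median and the count of 10 are partly fixed by the filter. *Ccl5* was at 5.28, 4.99 and 14.6 FPKM in cTECs and 58.8, 60.5 and 52.5 FPKM in mTECs, and *Ccl20* at 7.47, 5.04 and 6.27 FPKM against 46.7, 13.7 and 31.1 FPKM, neither called.

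Among cytokines that feed early thymocytes, *Kitl* was called of 9 tested. It encodes stem cell factor and was at 12.7, 25.3 and 25.1 FPKM in cTECs and 6.68, 4.3 and 5.59 FPKM in mTECs, 4.63-fold apart (adjusted p = 0.00588). *Flt3l* and *Il15* overlapped between the cell types. Of 15 genes of the Notch pathway, the ligand *Jag2* was called, at 83.6, 82.8 and 143.4 FPKM in cTECs and 29.9, 33.6 and 28.9 FPKM in mTECs, 3.10-fold apart (adjusted p = 0.00786). *Jag2* was thus higher per length than *Dll4* in every library. Of the receptors, *Notch1* was at 18.8, 10.1 and 18.9 FPKM against 17.1, 58.9 and 23.2 FPKM and *Notch2* at 13.9, 12.7 and 22.7 FPKM against 9.9, 11.7 and 29.4 FPKM. The target gene *Hes1* overlapped as well.

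Genes of the RANK, CD40, lymphotoxin and NF-kB pathways, through which lymphocytes drive mTEC growth, gave 0 calls of 16, with a median log2 fold change of -0.64. *Tnfrsf11a*, the receptor RANK, was at 5.25, 2.99 and 6.87 FPKM in cTECs and 22.1, 29.2 and 47.9 FPKM in mTECs (log2 fold change -2.55, adjusted p = 0.0286). *Cd40* was at 18.8, 18.9 and 16.2 FPKM against 72.7, 66.4 and 92.5 FPKM (-2.55, adjusted p = 0.0247), and *Nfkb2*, the subunit of the non-canonical pathway, at 52.7, 71.2 and 45.1 FPKM against 121.5, 107.2 and 116 FPKM (-1.07, adjusted p = 0.049). The groups did not overlap for these 3 genes. *Ltbr*, the lymphotoxin beta receptor, stood the other way round, at 102.8, 107.8 and 67.3 FPKM in cTECs and 65.7, 52.3 and 29.3 FPKM in mTECs. Over the list, 7 of the 16 did not overlap and were higher in mTECs, against 12.9% of tested genes. Towards cTECs there were 2, against 8.15%.

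None of 12 transcription factors of thymus formation was called (median 0.61). *Foxn1* was at 185.6, 220.5 and 67.8 FPKM in cTECs and 113.2, 97.5 and 49.4 FPKM in mTECs, a log2 fold change of 0.73 ± 0.45 (adjusted p = 0.442), and its groups overlapped through cTEC 5. *Pax1* was at 549.9, 674.6 and 254.3 FPKM against 170.6, 167.2 and 72.5 FPKM (1.79 ± 0.42, adjusted p = 0.052) and *Hoxa3* at 7.75, 11.6 and 11.4 FPKM against 1.81, 1.46 and 3.73 FPKM (2.44 ± 0.52, adjusted p = 0.038). *Trp63*, the factor that maintains epithelial progenitors, was at 99.6, 113.8 and 181.9 FPKM against 56.3, 59.4 and 81.1 FPKM (0.84, adjusted p = 0.127). None of 25 tested genes of the BMP, FGF and WNT pathways was called. *Wnt4*, a WNT ligand made by TECs, was at 310.1, 350.3 and 82.1 FPKM in cTECs and 144.8, 110.7 and 31.7 FPKM in mTECs and overlapped. *Bmp4*, a BMP ligand, was at 9.93, 13.5 and 6.54 FPKM against 2.35, 0 and 0.42 FPKM, and *Fgf21*, a hormone of the FGF family, at 1.19, 0 and 4.11 FPKM against 43.8, 77.3 and 121.3 FPKM, neither called.

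Of 13 tested keratins, *Krt14* alone was called, and 7 did not overlap. Of these, 2 were higher in cTECs, against 8.15% of tested genes in that direction, and 5 in mTECs, against 12.9%. *Krt5* was at 1629, 1462 and 1077 FPKM in cTECs and 2756, 3073 and 1442 FPKM in mTECs (log2 fold change -0.81, adjusted p = 0.194), and *Krt8* at 1837, 2303 and 1195 FPKM against 1498, 1337 and 980.9 FPKM (0.41, adjusted p = 0.51), so both overlapped. *Krt17* did not overlap, at 931, 966.8 and 728.4 FPKM in cTECs and 2184, 2110 and 1540 FPKM in mTECs (-1.19, adjusted p = 0.028). None of 20 claudin and junction genes and none of 19 genes of extracellular matrix and its receptors was called, with median log2 fold changes of -0.58 and 0.12. *Cldn4*, a claudin of mTEC precursors, was at 17.5, 12.7 and 29.9 FPKM against 35.9, 43.9 and 75 FPKM, and *Lamb3*, a laminin chain, at 154.5, 124.6 and 98.5 FPKM against 83, 63.7 and 63.1 FPKM.

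Of 17 genes of microfold and intestinal cells, which some mTECs mimic, 11 did not overlap and were higher in mTECs, against 12.9% of tested genes. *Cdx1*, a transcription factor of the gut, was the 1 called, at 4.69, 6.29 and 6.51 FPKM in cTECs and 60.4, 60.7 and 60.4 FPKM in mTECs, 10.7-fold apart (adjusted p = 0.00597). *Reg3g*, an antimicrobial lectin of the gut, was at 53, 82.4 and 86 FPKM against 261.2, 162.8 and 263.5 FPKM (log2 fold change -1.62, adjusted p = 0.0253). Cornified cells gave 0 of 17 genes, with a median log2 fold change of -2.95. Of the 17, 11 did not overlap and were higher in mTECs, against 12.9% of tested genes. *Dmkn*, a secreted protein of the upper epidermis, was among them, at 13, 6.26 and 8.64 FPKM against 61, 39.5 and 47.7 FPKM (-2.95, adjusted p = 0.049). Tuft cells gave 0 of 15 with a median of -0.58, with 2 genes not overlapping towards mTECs, near the 12.9% over all tested genes, and 1 towards cTECs. The tuft channel *Trpm5* was at 8.12, 7.37 and 27.6 FPKM in cTECs and 5.15, 21.9 and 10.6 FPKM in mTECs. Of 21 genes of ciliated, neuroendocrine, muscle and ionocyte cells none was called (median -1.79), the neuroendocrine factor *Insm1* coming closest at 3.24, 0.74 and 2.61 FPKM against 23.9, 26 and 26.6 FPKM (-4.03, adjusted p = 0.0211). In these lists, any gene that passed the filter through mTECs alone had to be higher there, which limits the medians and non-overlap counts.

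Of 26 tissue-restricted antigens listed, 22 passed the filter on low values and *Csn2* was called higher in mTECs. A gene that passed through the mTECs alone had to be higher there, so the median of -2.37 over these 22 carries no weight of its own. *Apoa1*, an apolipoprotein of liver and gut, was at 7.03, 1.86 and 5 FPKM in cTECs and 48.3, 30 and 32.2 FPKM in mTECs, and *Crp*, a liver acute-phase protein, at 2.04, 0 and 0.83 FPKM against 18.5, 33.3 and 23.9 FPKM. Neither was called. More genes reached a mean of 0.5 FPKM in mTECs, 17089, than in cTECs, 15615, with 2861 in mTECs alone and 1387 in cTECs alone. Those means do not correct for the greater depth of 2 of the mTEC libraries. With every library drawn down to 6718225 counts, genes with at least 3 counts numbered 16069, 13945 and 16897 in cTECs and 15224, 14598 and 19541 in mTECs. The means of 15637 ± 1523 and 16454 ± 2691 (SD, n = 3) differed by less than their spread (two-sided exact permutation test, p = 0.8, where the smallest p that 3 against 3 can give is 0.1).

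Genes of mitosis were higher in mTECs in all 16 cases by the sign of the log2 fold change, with a median of -1.99, and 13 of the 16 did not overlap. None was called. *Mki67*, the proliferation antigen, was at 6.53, 8.5 and 3.2 FPKM in cTECs and 14, 15.7 and 27.5 FPKM in mTECs (-1.62 ± 0.39, adjusted p = 0.0534), and *Top2a*, a topoisomerase of dividing cells, at 9.55, 4.07 and 8.27 FPKM against 36.4, 28.9 and 52.8 FPKM (-2.15 ± 0.56, adjusted p = 0.0699). The non-overlap background in that direction was 12.9%. Marker sums of macrophages, B cells and erythroid cells, given next, were higher in mTECs too, and their part in the mitotic genes was not tested.

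**Figure D4:**
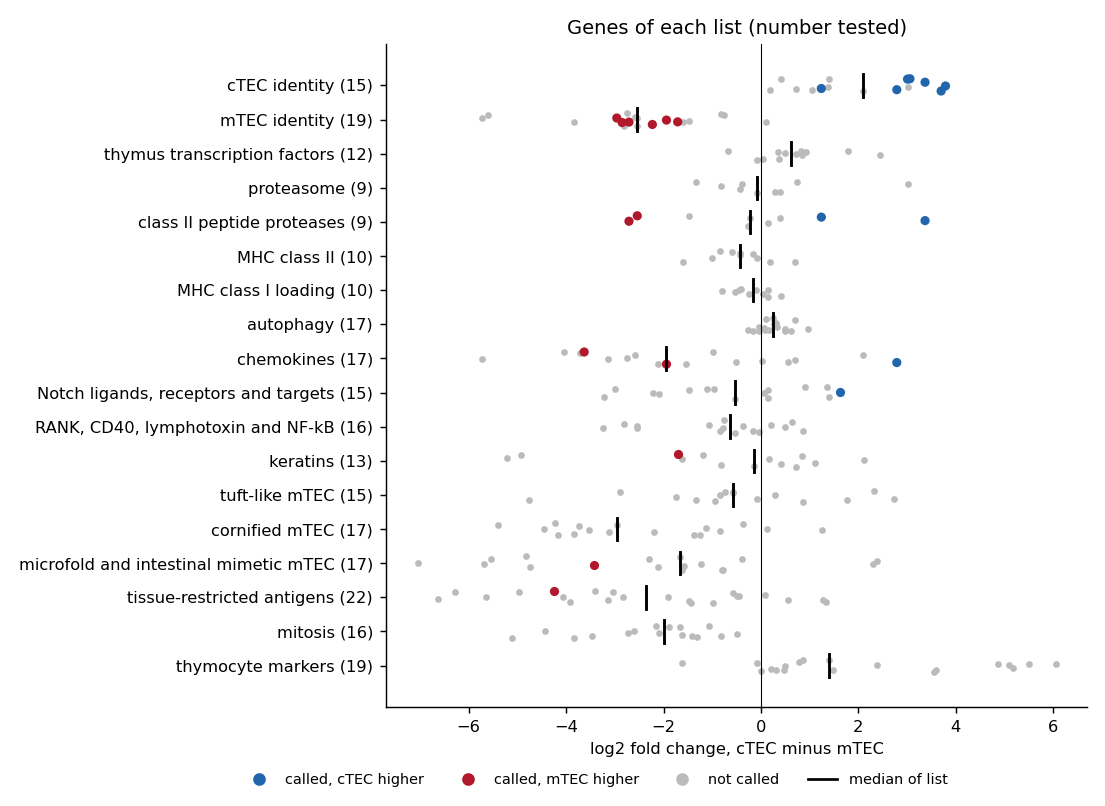
The log2 fold change (cTEC minus mTEC, horizontal axis) of each tested gene of 18 gene lists, 1 point per gene, with called genes in blue or red, the others in grey and a black bar at the median of each list. The cTEC identity list lies to the right (median 2.09) and the mTEC identity list to the left (median -2.55). The medians of the MHC class II, MHC class I and autophagy lists are -0.43, -0.17 and 0.25.

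Markers of other cells in the thymus were measured in the same libraries. The summed FPKM of 20 thymocyte markers was 262.2, 127.7 and 51.5 in cTECs and 64.1, 64.7 and 58.8 in mTECs (exact permutation test, p = 0.4), so cTEC 1 stood highest. The lymphocyte phosphatase *Ptprc* (CD45), against which cells were gated, was at 3.3, 3.41 and 1.92 FPKM in cTECs and 0.8, 0.06 and 1.5 FPKM in mTECs. Without cTEC 5 the log2 difference of that sum, 0.94, was 1.54 (exact permutation p = 0.1 for 2 against 3), and without cTEC 1 it was 0.38. Of 19 tested thymocyte genes none was called, but 17 had a positive log2 fold change (median 1.39) and 5 did not overlap and were higher in cTECs, against 8.15% of tested genes. Macrophage and dendritic markers summed to 18.9, 12.7 and 40.8 FPKM in cTECs and to 99.1, 129.8 and 170.7 FPKM in mTECs, and *Lyz2* made up most of each mTEC sum. The defining macrophage genes *Adgre1* and *Fcgr1* were at 0 to 0.15 FPKM in cTECs and at 0 to 3.14 FPKM in mTECs, and the dendritic gene *Itgax* at no more than 0.56 FPKM in any library.

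B cell markers summed to 3.74, 6 and 5.99 FPKM in cTECs and 39.8, 44.7 and 58.8 FPKM in mTECs, through *Fcer2a*, *Cd79b* and *Cr2*, while the defining gene *Ms4a1* was at no more than 0.4 FPKM in any library. Erythroid markers summed to 2.74, 0 and 0.25 FPKM against 22.7, 41.9 and 29 FPKM, and endothelial markers to 3.55, 1.04 and 3.79 FPKM against 15.3, 16.2 and 9.35 FPKM. For the macrophage, B cell, erythroid and endothelial sums the cell types did not overlap and the exact permutation p was 0.1, the smallest that 3 against 3 allows. The share that such cells have in the mTEC-high genes was not tested. Fibroblast and pericyte markers summed alike, to 489 to 593.7 FPKM in cTECs and 547.4 to 605.7 FPKM in mTECs (exact permutation p = 0.4), but not gene by gene. *Dcn*, a matrix proteoglycan, was at 366.6, 436.2 and 360.6 FPKM in cTECs and 127.2, 120.1 and 81.2 FPKM in mTECs, 3.45-fold apart (adjusted p = 0.00445), while *Col6a1*, a chain of collagen VI, and *Rgs5*, a pericyte regulator of G proteins, were 3.34-fold and 10.3-fold higher in mTECs (adjusted p = 0.00507 and 0.00212), *Col6a1* not being called by edgeR. The defining fibroblast genes *Pdgfra* and *Col1a2* were at 0 to 1.3 and 1.29 to 2.69 FPKM over the 6 libraries.

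Genes tied to the sorting gate are given as a check and are no finding between the groups. *Epcam* was at 73.7, 76.2 and 183.2 FPKM in cTECs and 149.1, 222.9 and 288.9 FPKM in mTECs (log2 fold change -1.13, adjusted p = 0.103). *Fut1*, a fucosyltransferase that can make the sugar bound by UEA1, was at 3.2, 2.56 and 2.41 FPKM in cTECs and 40.5, 28.4 and 24.4 FPKM in mTECs (-3.52 ± 0.76, adjusted p = 0.038). *Fut2*, the related enzyme of secretory epithelia, overlapped, at 1.54, 4.62 and 2.87 FPKM against 3.22, 1.56 and 4.2 FPKM.

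The same contrast was made in other mice, 3 samples of each cell type from 2 days before birth (D-2) and 3 of each from day 12 after birth (D12). At D-2, 550 of 18995 genes were called (2.9%), and at D12, 2052 of 18796 (10.9%). All 128 genes had the direction seen in NPC at both times, against 66.8% and 74.6% of all genes tested at both. Of the 128, 110 were called at D-2 (85.9% of the 128 and 20% of the D-2 calls) and all 128 at D12 (6.24% of the D12 calls). The median SE was 0.43 at D-2 and 0.37 at D12 against 0.66 in NPC, so the higher counts at those times came with more precise estimates.

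The size of the differences was compared between times without a test. The median log2 fold change of the 56 genes higher in cTECs was 2.24 in NPC, 1.86 at D-2 and 2.70 at D12, and that of the 72 genes higher in mTECs was -2.55, -2.04 and -2.43. The genes were chosen on their NPC values, so a smaller median elsewhere is no result. *Prss16* had a mean of 220.5 FPKM in cTECs and 60.4 FPKM in mTECs at D-2, 1550 and 150.8 FPKM in NPC, and 2735 and 100.8 FPKM at D12. *Psmb11* had 27.3 and 15.6 FPKM at D-2, 177.2 and 20 FPKM in NPC, and 314.1 and 16.5 FPKM at D12, and it was called at D12 but not at D-2. *Fezf2* moved less, with 27.1 and 138.1 FPKM, 28.6 and 132.9 FPKM, and 30.9 and 185.6 FPKM.

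By list, the cTEC identity genes had 6 of 15 called at D-2 (background 1.25% towards cTECs) and 14 of 15 at D12 (4.58%), with medians of 0.62 and 3.57, and the mTEC identity genes had 8 and 12 of 19 (1.64% and 6.34% towards mTECs), with medians of -2.34 and -2.65. Mitosis genes had 0 of 16 called at D-2 and 11 at D12, all towards mTECs, and thymocyte markers 0 of 18 and 7 of 20, all towards cTECs. Among the 18 of the 128 that were not called at D-2 were *Ccl21a* (log2 fold change -1.05), *Ctsl* (0.62), *Ctsh* (-1.31), *Ada* (1.12) and *Cdx1* (-2.27).

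A difference between times was tested directly as the interaction of cell type and time, in which the NPC samples are shared by both tests. No gene was called, of 20615 against D-2 and 20391 against D12, by limma-voom or by edgeR. At an unadjusted p under 0.05 there were 1463 and 1066 genes by limma-voom and 878 and 540 by edgeR, and DESeq2 called 9 and 3. For *Prss16* the cell-type difference was 1.54 ± 0.43 larger (log2) in NPC than at D-2 and was -1.82 ± 0.38 relative to D12, with adjusted p of 0.601 and 0.89.

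**Figure D5:**
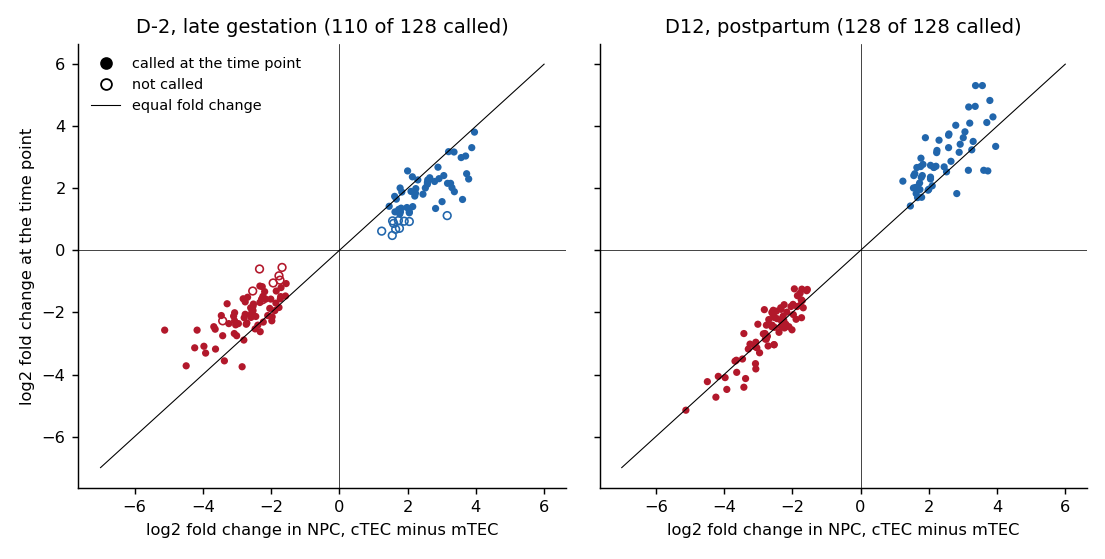
The log2 fold change (cTEC minus mTEC) of the 128 genes called in NPC on the horizontal axis, against that at D-2 (left) or D12 (right) on the vertical axis, with genes higher in cTECs in blue, genes higher in mTECs in red, filled where also called at that time, and a line of equal fold change. All points lie in the lower left and upper right quadrants, 110 are filled at D-2 and 128 at D12.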

How the data were processed

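RNA of sorted mouse cTECs and mTECs was measured in 56 samples, of which the 6 NPC samples and, for comparison, the 6 D-2 and 6 D12 samples were used. Per the submitters' processing notes and the study's methods, the authors demultiplexed reads with bcl2fastq 2.20, trimmed them with Trimmomatic 0.35, aligned them to GRCm38 with STAR 2.5.1b and quantified genes with RSEM 1.2.28. The deposited expected counts are RSEM estimates without normalization (92.3% to 96.5% of those in NPC were whole numbers). The authors' FPKM values scale them by length and total, and the deposited TPM values scale them to a constant sum. Reads shared by near-identical genes are divided by RSEM's model. Gene names and positions came from GENCODE M21 on GRCm38 (50376 of 50600 identifiers matched) and start regions from RefSeq on GRCm38.p6.

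Samples were grouped by their labels. Expected counts were rounded and fitted with limma 3.58.1 (voom, TMM scaling from edgeR 4.0.16) in R 4.3.3, on the 6 samples of a time point, or on 12 samples for an interaction. Genes with a mean of at least 0.5 FPKM in either cell type were tested. A gene that passed through 1 cell type alone had to have the higher mean FPKM there, which limits the list medians and non-overlap counts. A call required a 2-fold or larger change and p no higher than 0.01 after Benjamini-Hochberg adjustment. Named genes were the members of 34 lists (450 genes, 422 tested), the 15 largest differences in each direction among called genes (larger differences that were not called, such as that of *Aire*, are left out of those 15) and the 10 highest-level genes of each cell type. Some members of the lists are not reported here. The members and lists were chosen with earlier results of these data known. Alternatives were edgeR's quasi-likelihood test, DESeq2 1.42.0, limma-trend of log2 FPKM with pseudocounts of 0.5 or 0.1, sample quality weights, other scalings and filters, all 56 samples, replicate blocks and leaving out each library. Marker sums and detected genes were compared by two-sided exact permutation tests in SciPy 1.17.1. Total expected counts of the 6 libraries ran from 6718253 to 31668145, and values at low levels are limited by that depth. Each replicate was 1 mouse, but whether a cTEC and an mTEC sample of 1 number shared a mouse is not given in the sources used here. The gene-wise fits were tested on simulated data, which varied less between replicates than the NPC libraries did. That test therefore does not measure how reliable the calls made here are.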

Additional observations from a re-analysis of the deposited data

How the results depend on the processing

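The direction of the 83 genes followed through the alternatives held, and the number of genes called did not. Of 1743 values of 83 genes under the alternatives, 1406 kept their side of the threshold, 203 lost a call, 134 gained one and 0 reversed. Against 128 calls (56 higher in cTECs, 72 in mTECs), DESeq2 gave 973 (248 and 725), edgeR 259 (189 in mTECs), sample quality weights 251 (204 in mTECs), no filter 353 (101 and 252), all 56 samples in the fit 962 (384 and 578), an adjusted p of at most 0.05 424 (177 and 247), limma-trend with a pseudocount of 0.1 58 (11 and 47) and with 0.5 108 (24 in cTECs). Other scalings gave 120 without TMM (63 and 57) and 125 with DESeq2 size factors. Without TMM *Fscn1*, *Cxcl9*, *Ctss* and *Lyz2* lost their calls. Leaving out 1 library gave 0 to 120 calls, 0 to 62 in cTECs and 0 to 75 in mTECs. Without cTEC 4, edgeR gave 70 (12 and 58) and DESeq2 807 (169 and 638), both tried after the data were seen. DESeq2 also gave 1307 calls at D-2 and 9 and 3 in the interactions with D-2 and D12. With limma-voom, leaving out 1 library gave 0 in both interactions. The causes of these changes were not tested.

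Whether cTEC and mTEC samples were paired by replicate tag or title number is not given in the labels. Deviations of NPC cTEC and mTEC samples with the same replicate tag correlated at 0.095 to 0.284. Those with the same title number correlated at -0.159 and 0.095. All 6 samples correlated best with their own tag, and the highest value between unlike tags was 0.034. Whether a tag stands for a shared mouse or a batch was not tested, and the main fit used no pairing. A replicate block by tag gave 549 calls (244 and 305) and by title number 97 (43 and 54). The difference in detected genes of -817 became 29 without cTEC 4 and 726 without mTEC 4, with a range of -1746 to 726 over the single libraries left out. It was -1219 at 1 or more counts (exact permutation p = 0.8) and -1159 at 10 or more (exact permutation p = 0.1). The log2 difference of the fibroblast sum, -0.09, became 0.06 with TPM, and that of the parathyroid sum, -0.07, became 0.07 with TPM and 0.78, 0.59 and 0.31 without cTEC 1, mTEC 3 and mTEC 4 (range over single libraries -1.12 to 0.78). The depth of the smallest library, 6718253 counts, and a median SE of 0.66 limit what low-level genes can show.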

Other observations

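Receptors and response genes of steroid hormones and prolactin, whose levels change in pregnancy, were also measured in the non-pregnant mice. Of 8 tested, none was called. *Pgr*, the progesterone receptor, was at 7.18, 3.5 and 9.94 FPKM in cTECs and 0.87, 2.27 and 2.65 FPKM in mTECs, without overlap (log2 fold change 2.13 ± 0.49, adjusted p = 0.0481), and was called at D-2. *Nr3c1*, the glucocorticoid receptor, was at 35.7, 42.6 and 33.3 FPKM against 13, 17.8 and 21.1 FPKM, also without overlap (1.05 ± 0.25, adjusted p = 0.0505), and was called at D12. The oestrogen receptor *Esr1*, at 1.9, 6.42 and 4.55 FPKM against 6.83, 6.78 and 5.61 FPKM, overlapped between the cell types. The glucocorticoid-induced gene *Tsc22d3* followed the libraries, at 60.5 FPKM in cTEC 5 and 49.4 FPKM in mTEC 4 against 10.7 to 24.7 FPKM in the others.

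A few other genes of the lists, picked after their values were seen, did not overlap and were not called. *Igf1*, insulin-like growth factor 1, was at 10.6, 6.72 and 11.2 FPKM in cTECs and 53.5, 35.2 and 42.4 FPKM in mTECs, and was called at D-2 and at D12. Its log2 fold change by limma-voom, -1.03 ± 0.36 (adjusted p = 0.149), was smaller than these FPKM values give. At D-2 and D12 it was -1.69 and -1.20. *Cxcl14* was at 0.77, 2.92 and 1.54 FPKM against 23.9, 27.6 and 28 FPKM and was called at both times too. *Saa3*, a serum amyloid, was at 13.1, 0 and 19.4 FPKM against 113.5, 28.5 and 70 FPKM and was called at D12.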
